A study of Homo sapiens with 2 samples.

Results

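The 10 genes described here lie in 3 chromosome regions known for DNA gains in breast tumours, and their RNA was measured in MDA-MB-231, a breast cancer line that lacks hormone receptors, with and without TMEM25, which encodes a transmembrane protein. HIPK1, BCAS2, DENND2C and NRAS lie at 1p13, APPBP2, PPM1D, BCAS3 and TBX2 at 17q23, and SULF2 and GNAS at 20q13. They are 10 of the 2046 genes in the table analysed here, and they were chosen by name, from their position and from the ratios of knockout to wild type seen in these same libraries. Their ratios are therefore a description with no test. The wild-type library is labelled TAMER+/+ and the knockout library TAMER-/-, and TAMER was taken to be TMEM25, the gene named in the design text. Both came from MDA-MB-231 cells grown in DMEM with fetal bovine serum, and each genotype had 1 library, so no difference has a replicate check. How the gene was knocked out, and whether the knockout cells were 1 clone, is not given in the sources used here.

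Gain of a chromosome region raises the number of copies of every gene in it, and tumours can carry such amplicons far above the normal copy number. The regions 1p13, 17q23 and 20q13 are known from breast tumours and from breast cancer cell lines, among them the luminal line MCF-7, and the BCAS genes (breast carcinoma amplified sequences) take their names from such screens. RNA of a gene in an amplicon need not follow its copy number, since each gene also has its own promoter and RNA turnover. DNA was not measured in the data used here, so copy number itself has no value below.

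Every gene in the table had a ratio of 2 or more and a knockout value of 1 or more, so each listed gene, the 10 included, was higher in the knockout library. Genes outside it were not analysed here. The median ratio over the 2046 genes was 3.33 (interquartile range 2.42 to 7.29). The listed genes held 4138956 knockout and 1046999 wild-type reads, a portion of each library that does not give its depth. Both libraries carry the label of MDA-MB-231, a mesenchymal-like line. Of 12 luminal breast markers 2 were listed, TFF1 at 5920 in the knockout and 0.94 in the wild type, and TFF3 at 127.85 and 3.68. The others, ESR1, PGR, GATA3, FOXA1, XBP1, KRT8, KRT18, KRT19, GREB1 and AGR2, were not listed, so their levels have no value here. Of all protein-coding genes 10.1% were listed, the share to set beside this count and the marker counts below. The summed level of the 2 listed luminal markers, nearly all of it TFF1 in the knockout, was 6048 in the knockout and 4.62 in the wild type. Since every listed gene had a ratio of 2 or more, this sum had to be higher in the knockout. The part of these markers in the results below was not tested. In bulk RNA a change in the share of cells of a type and a change in RNA per cell cannot be told apart. Of 10 mesenchymal markers 1 was listed, TGFBI at 10.18 and 0.42, and of 8 fibroblast and 8 leukocyte markers 0 were. TMEM25 itself was not analysed here, so its loss could not be checked, and which library is the knockout rests on column headers. These headers name KO and WT but neither TAMER nor TMEM25. The deposited log2 column headed WT follows the KO expression column in 2046 of 2046 genes, so the headers do not all agree. The direction of every ratio here rests on the headers of the expression and read columns. TFF1 and TFF3 are luminal markers, while both libraries carry the label of a mesenchymal-like line. TGFBI, the 1 listed mesenchymal marker, was also higher in the knockout library, as any listed gene had to be. A marker lower in the knockout could not appear in the table, so the direction of the listed markers is no check of the label. The regions 1p13, 17q23 and 20q13 are gained in the luminal line MCF-7. Their genes were chosen with their ratios known, so those ratios are no check of the label. Whether both libraries came from the same cell line is in doubt and was not tested. With 1 library each, a difference of genotype and a difference of cell line cannot be told apart, and each ratio below compares the library labelled knockout with the library labelled wild type.

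The promoters of neighbouring genes are shown first, because the results turn on genes that lie side by side with nearly equal ratios, and on 1 gene that does not follow its neighbour. Each window runs from 250 bases before to 50 bases after a RefSeq transcription start on GRCh38.p14, is written 5′ to 3′ on the strand of the gene, and has the GC box GGGCGG in capitals, searched on both strands (CCGCCC on the other). The GC box, bound by Sp1-type factors, is common in promoters of widely expressed genes. APPBP2, PPM1D and BCAS3 are the neighbours at 17q23, BCAS2 stands for 1p13, and SULF2 is shown at the 2 of its 4 starts that have a GC box, which are also the last along the strand.
BCAS2, chr1:114581566-114581865, minus strand: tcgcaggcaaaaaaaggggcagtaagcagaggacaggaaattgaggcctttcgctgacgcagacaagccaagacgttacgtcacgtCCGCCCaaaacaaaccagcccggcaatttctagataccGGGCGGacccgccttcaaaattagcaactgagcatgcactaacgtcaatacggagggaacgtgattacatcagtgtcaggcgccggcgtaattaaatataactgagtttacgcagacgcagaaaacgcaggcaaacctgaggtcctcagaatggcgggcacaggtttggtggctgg
APPBP2, chr17:60526193-60526492, minus strand: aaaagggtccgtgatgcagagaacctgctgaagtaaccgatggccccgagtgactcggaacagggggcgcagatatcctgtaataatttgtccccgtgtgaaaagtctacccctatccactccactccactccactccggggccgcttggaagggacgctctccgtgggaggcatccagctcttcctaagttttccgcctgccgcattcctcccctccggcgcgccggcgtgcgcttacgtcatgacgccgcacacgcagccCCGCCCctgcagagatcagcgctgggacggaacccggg
PPM1D, chr17:60599943-60600242, plus strand: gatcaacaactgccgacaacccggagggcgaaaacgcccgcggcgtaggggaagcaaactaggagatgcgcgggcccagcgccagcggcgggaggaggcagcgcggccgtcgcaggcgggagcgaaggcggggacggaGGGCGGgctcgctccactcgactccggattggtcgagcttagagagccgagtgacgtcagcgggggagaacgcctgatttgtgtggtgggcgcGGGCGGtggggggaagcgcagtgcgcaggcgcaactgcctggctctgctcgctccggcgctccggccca
BCAS3, chr17:60677601-60677900, plus strand: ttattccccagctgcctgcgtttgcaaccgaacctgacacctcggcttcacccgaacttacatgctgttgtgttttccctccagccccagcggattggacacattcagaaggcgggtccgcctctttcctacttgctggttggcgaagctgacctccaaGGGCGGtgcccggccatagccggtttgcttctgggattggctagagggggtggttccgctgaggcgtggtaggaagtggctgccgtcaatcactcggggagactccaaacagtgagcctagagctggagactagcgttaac
SULF2 GC-rich start, chr20:47785432-47785731, minus strand: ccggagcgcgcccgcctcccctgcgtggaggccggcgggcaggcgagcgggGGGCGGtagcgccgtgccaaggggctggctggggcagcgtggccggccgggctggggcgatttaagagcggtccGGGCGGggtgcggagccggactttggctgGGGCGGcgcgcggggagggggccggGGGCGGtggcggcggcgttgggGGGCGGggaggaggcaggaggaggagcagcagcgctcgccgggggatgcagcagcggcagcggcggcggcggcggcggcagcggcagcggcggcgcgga
SULF2 last start, chr20:47764379-47764678, minus strand: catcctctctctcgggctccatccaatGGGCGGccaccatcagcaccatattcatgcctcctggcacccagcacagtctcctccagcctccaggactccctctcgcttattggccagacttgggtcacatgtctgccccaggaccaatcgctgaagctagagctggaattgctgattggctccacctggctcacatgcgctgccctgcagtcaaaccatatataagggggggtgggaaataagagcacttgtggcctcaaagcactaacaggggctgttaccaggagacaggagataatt

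The windows of the 3 neighbours at 17q23 differed in composition. PPM1D had 71.0% G and C with 39 CpG sites, APPBP2 62.3% with 26 and BCAS3 58.3% with 16, while BCAS2 at 1p13 had 52.3% with 21. At SULF2 the GC-rich start had 82.3% G and C, 46 CpG sites and 5 GC boxes, and the last start 55.7%, 5 CpG sites and 1 GC box. The 2 starts before them had 55.7% and 56.7% G and C and 0 GC boxes each. Over 35116 RefSeq windows of the same length the median was 58.7% G and C and 14 CpG sites. RefSeq windows were found for 9 of the 10 genes, 19 windows in all, and TBX2 had none. A GC box was in 11 of the 19, at least 1 for each of the 9 genes, against 45.0% of all windows. A full palindromic estrogen response element was in 0 of the 19, against 0.057% of all windows. A motif that rare would seldom be met in 19 windows, so nothing is read from its absence. Which start was used in these cells was not measured, and a motif match is a description of letters only.

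At 1p13 the 4 genes lie within 0.79 Mb of chromosome 1 (113929192 to 114716894, GRCh38) and were about 4- to 6-fold higher in the knockout library. NRAS, the small GTPase that relays growth factor signals to the RAF kinases, was at 96.46 in the knockout and 15.92 in the wild type, from 8016 and 1145 reads, a ratio of 6.06. BCAS2, a subunit of the PRP19 splicing complex, was at 158.71 and 25.84, from 3784 and 533 reads, a ratio of 6.14. NRAS and BCAS2 were nearly alike in ratio, although BCAS2 had the higher level in both libraries. HIPK1, a nuclear serine/threonine kinase that acts on homeodomain proteins and other regulators of transcription, was at 79.59 and 14.66, from 11612 and 1868 reads, a ratio of 5.43. DENND2C, an activator of RAB9-type GTPases in vesicle traffic, was the lowest in level and ratio, at 4.55 and 1.08, from 364 and 75.5 reads, a ratio of 4.21. DENND2C lies between BCAS2 and NRAS, 1208 bases from the one and 34046 bases from the other, and its ratio was below both. The levels are deposited expression values of no named unit, taken here to be scaled for gene length because the reads behind 1 unit of value differ from gene to gene.

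The counting error of these ratios is small beside their size. The read-count fold divides the reads of the knockout by those of the wild type and by 1.16, which adjusts for the reads behind 1 unit of expression in each library. With its 95% counting interval it was 6.06 (5.70 to 6.45) for NRAS, 6.15 (5.61 to 6.74) for BCAS2, 5.38 (5.12 to 5.65) for HIPK1 and 4.17 (3.27 to 5.46) for DENND2C. The interval of HIPK1 ended below that of NRAS and overlapped that of BCAS2 slightly. DENND2C's interval overlapped that of HIPK1 and ended below those of BCAS2 and NRAS. These intervals describe counting error alone. Without molecular identifiers, reads may be copies of 1 molecule. BCAS2 has 3 processed pseudogenes in GENCODE, and how reads shared with them were divided is not given in the sources used here. For HIPK1, 3.24% of exon bases overlap exons of the antisense gene HIPK1-AS1, and whether strand was used in counting is also not given.

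**Figure D1:**
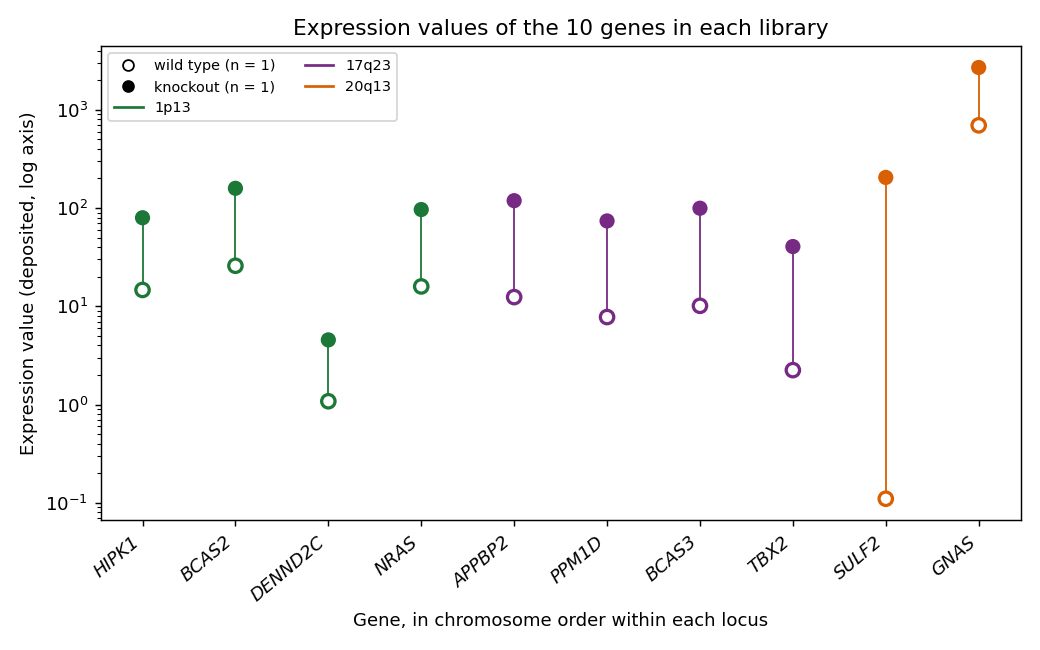
Expression values of the 10 genes (log axis, deposited values without a named unit) in the wild-type library (open circles) and the knockout library (filled circles), 1 library each, coloured by locus. The knockout point lies above the wild-type point for every gene, with the longest line for SULF2 (0.11 to 204.81) and a short one for GNAS (693.69 to 2691).

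At 17q23 the 4 genes occupy 0.97 Mb of chromosome 17 (60443149 to 61409466, GRCh38), lie side by side with no other protein-coding gene between them in GENCODE, and were about 10- to 18-fold higher in the knockout library. APPBP2, an adaptor that brings substrates to a CUL2 ubiquitin ligase, was at 118.78 in the knockout and 12.4 in the wild type, from 14110 and 1327 reads, a ratio of 9.58. PPM1D, the phosphatase WIP1, which is induced by p53 and removes phosphate from p53 and its upstream kinases, was at 73.87 and 7.77, from 6594 and 600 reads, a ratio of 9.51. BCAS3, a large gene whose product is linked to the cytoskeleton and to autophagy, was at 99.52 and 10.11, from 6188 and 480 reads, a ratio of 9.84. The ratios of these 3 neighbours lay within 1.04 times of each other, while their levels differed. TBX2, a T-box repressor that acts on cell cycle inhibitor genes, was at 40.55 and 2.24, from 2550 and 122 reads, a ratio of 18.1. TBX2 thus had the lowest level of the 4 in both libraries and a ratio above the others, but with a pseudocount of 5 its ratio was 6.29, below APPBP2 at 7.11 and BCAS3 at 6.92.

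On reads the same genes were somewhat less even. The read-count fold was 9.20 (8.70 to 9.74) for APPBP2, 9.51 (8.75 to 10.4) for PPM1D, 11.1 (10.2 to 12.3) for BCAS3 and 18.1 (15.1 to 21.9) for TBX2. The intervals of APPBP2 and PPM1D overlapped, and that of BCAS3 began above the end of APPBP2's and excluded its own ratio of expression values, 9.84. TBX2's interval overlapped none of the other intervals. Exon overlap with antisense genes was under 1% of exon bases for BCAS3 (0.77%) and TBX2 (0.46%), and none was annotated for APPBP2 or PPM1D.

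At 20q13 the pair was uneven. SULF2, a secreted sulfatase that trims 6-O-sulfate from heparan sulfate and so changes growth factor binding at the cell surface, was at 204.81 in the knockout and 0.11 in the wild type, from 15939 and 11.3 reads, a ratio of 1862. GNAS, the alpha subunit of the stimulatory G protein that activates adenylyl cyclase, was at 2691 and 693.69, from 80275 and 17862 reads, a ratio of 3.88. GNAS was the fourth most abundant of the 2046 genes in each library, whereas SULF2 ranked 111 in the knockout and 1836 in the wild type. SULF2 was near 0 in the wild-type library and high in the knockout library, and GNAS was high in both. The read-count fold was 1225 (701 to 2513) for SULF2, whose width comes from the 11.3 wild-type reads, and 3.89 (3.83 to 3.95) for GNAS. From the outer end of SULF2 to that of GNAS is 11.3 Mb of chromosome 20 (47656348 to 58911192, GRCh38), far wider than either other locus. For GNAS, 8.46% of exon bases overlap exons of GNAS-AS1, and for SULF2 1.44% overlap those of NCOA3 and 3.18% those of an antisense gene.

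**Figure D2:**
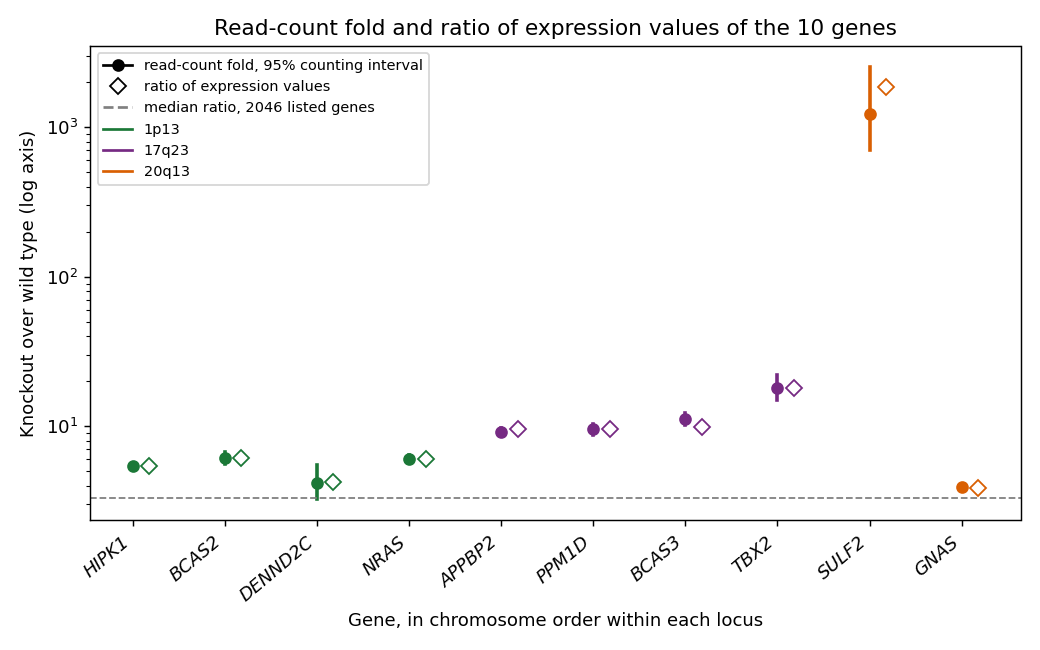
Knockout over wild type for the 10 genes (log axis), as the read-count fold with its 95% counting interval (filled circles and bars) and as the ratio of expression values (diamonds), with the median ratio of 3.33 over the 2046 listed genes as a dashed line. The 1p13 genes sit between 4.17 and 6.15, the 17q23 genes between 9.20 and 18.1, and SULF2 far above GNAS.

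Evenness was expressed as the highest over the lowest ratio of expression values within a locus. It was 1.46 at 1p13, 1.90 at 17q23 and 480 at 20q13. The SD of the log2 ratio was 0.25 at 1p13 (4 genes), 0.45 at 17q23 (4 genes) and 6.30 at 20q13 (2 genes), beside 1.67 over all 2046 genes. Without the gene that had the fewest wild-type reads, DENND2C at 1p13 and TBX2 at 17q23, highest over lowest was 1.13 and 1.04. DENND2C also had the lowest ratio at 1p13 and TBX2 the highest at 17q23, so leaving them out had to lower these figures. On reads highest over lowest was 1.47 at 1p13, 1.97 at 17q23, 315 at 20q13 and 1.21 for APPBP2, PPM1D and BCAS3 alone. Because the members were named with their ratios known, an even set of members is not evidence that a locus is even, and the other listed genes of each region follow for that reason.

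Of the 10 genes, 9 had a ratio of at least 4, beside 41.2% of all 2046 genes, with DENND2C just above that limit (4.21) and GNAS just below it (3.88). A ratio of at least 10 was reached by 2 genes, TBX2 and SULF2, beside 20.1% of all genes. The lower limit of the counting interval was above 4 for 8 genes, beside 32.4%, with DENND2C and GNAS the ones short of it. The median ratio of the 10 genes was 7.82. Since the ratio chose the genes, nothing is read from these counts.

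**Figure D3:**
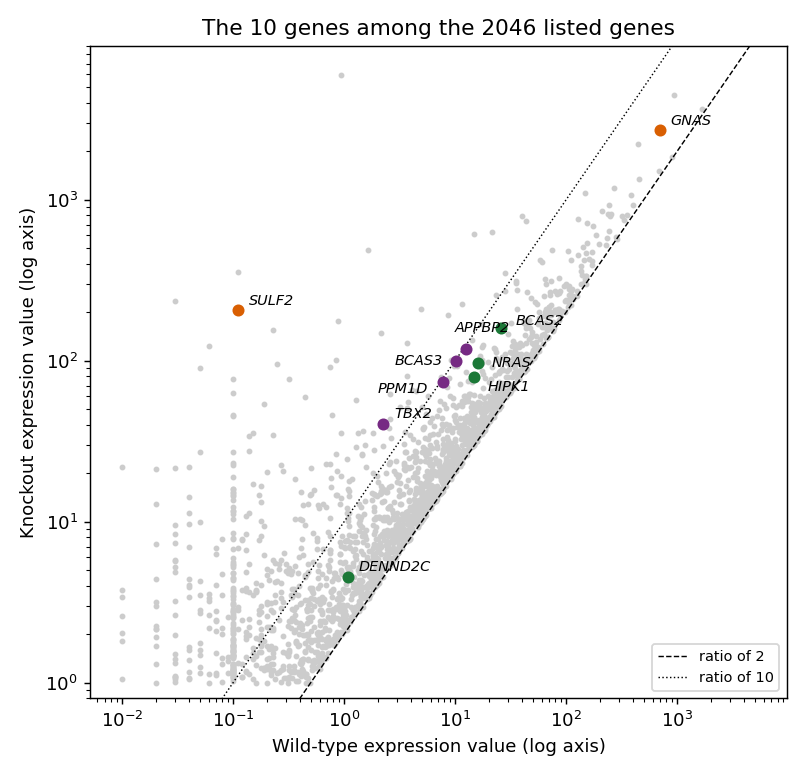
Knockout against wild-type expression value (both log axes) for all 2046 listed genes (grey; genes with 0 wild-type reads carry a deposited value of 0.1) and the 10 genes, coloured by locus as in the other plots, with lines at ratios of 2 and 10. APPBP2, PPM1D and BCAS3 lie along the line at 10, the 1p13 genes lie between the lines, and SULF2 lies far to the left of them.

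Genes around the members were counted in windows reaching 1 Mb past the outermost members. Of protein-coding genes in GENCODE, 10.1% were listed over all chromosomes, 8.52% on chromosome 1, 7.84% on chromosome 17 and 10.7% on chromosome 20. Leaving the members out, 11 of 21 were listed in the 1p13 window (52.4%), 10 of 18 in the 17q23 window (55.6%) and 23 of 78 in the 20q13 window (29.5%). Unlisted genes can be silent ones, whose number was not measured, and the windows were placed where ratios were already known to be high.

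Around 1p13 TRIM33 and DCLRE1B had ratios within or near the range of the members. TRIM33, a ubiquitin ligase that acts on SMAD4, lies between HIPK1 and BCAS2 and was at 51.86 in the knockout and 10.26 in the wild type, a ratio of 5.05. DCLRE1B, a nuclease of telomeres, 15.1 kb from HIPK1, was at 24.74 and 3.87, a ratio of 6.39. Across the window the 11 other listed genes were less even than the members, from 2.24 for MAGI3 to 14.7 for SLC16A1, the lactate transporter MCT1, with a median of 5.05 and an SD of the log2 ratio of 0.85.

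Around 17q23 the nearest listed gene on one side had a lower ratio than the members. USP32, a deubiquitinase 20.7 kb from APPBP2, was at 113.31 in the knockout and 23.48 in the wild type, a ratio of 4.83 beside 9.58. C17orf82, an RNA gene 2.28 kb beyond TBX2, was at 3.49 and 0.33, from 98 and 8 reads, a ratio of 10.6. CA4, a membrane-bound carbonic anhydrase, had the highest ratio in the window, 51.25, at 18.45 and 0.36, and MED13, a subunit of the Mediator kinase module, the lowest, 2.05, at 51.38 and 25.08. Over the 11 other listed genes the median was 6.12 and the SD of the log2 ratio 1.30. RPS6KB1, the S6 kinase of growth signalling and a known 17q23 amplicon gene, was at 270 and 27.83, a ratio of 9.70 and a read-count fold of 8.79 (8.36 to 9.24). VMP1, a membrane protein of autophagy, was at 231.91 and 52.72, a ratio of 4.40, and CLTC, the clathrin heavy chain, at 298.71 and 134.57, a ratio of 2.22.

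Around 20q13 SULF2 stood apart from the gene it overlaps. NCOA3, a nuclear receptor coactivator known as AIB1, ends in the 3′ part of SULF2 on the opposite strand, sharing 530 bases of gene span, and was at 303.32 in the knockout and 35.37 in the wild type, a ratio of 8.58 beside 1862 for SULF2. The next listed gene on the other side was SPATA2, 2117 kb away, at 11.85 and 5.41, a ratio of 2.19. GNAS was near the closest listed gene on one side in ratio, and above the closest on the other. ATP5F1E, a subunit of mitochondrial ATP synthase 114 kb away, was at 919.43 and 243.82, a ratio of 3.77 beside 3.88, and NPEPL1, an aminopeptidase-like protein 120 kb away on the other side, was at 42.4 and 13.57, a ratio of 3.12. The lowest ratio in the window was 2.06, of PRELID3B, the listed gene next past ATP5F1E from GNAS, at 127.4 and 61.97. Over the 23 other listed genes the median was 3.65, the highest was 118 for BMP7, a secreted bone morphogenetic protein at 100.3 and 0.85, and the SD of the log2 ratio was 1.38.

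**Figure D4:**
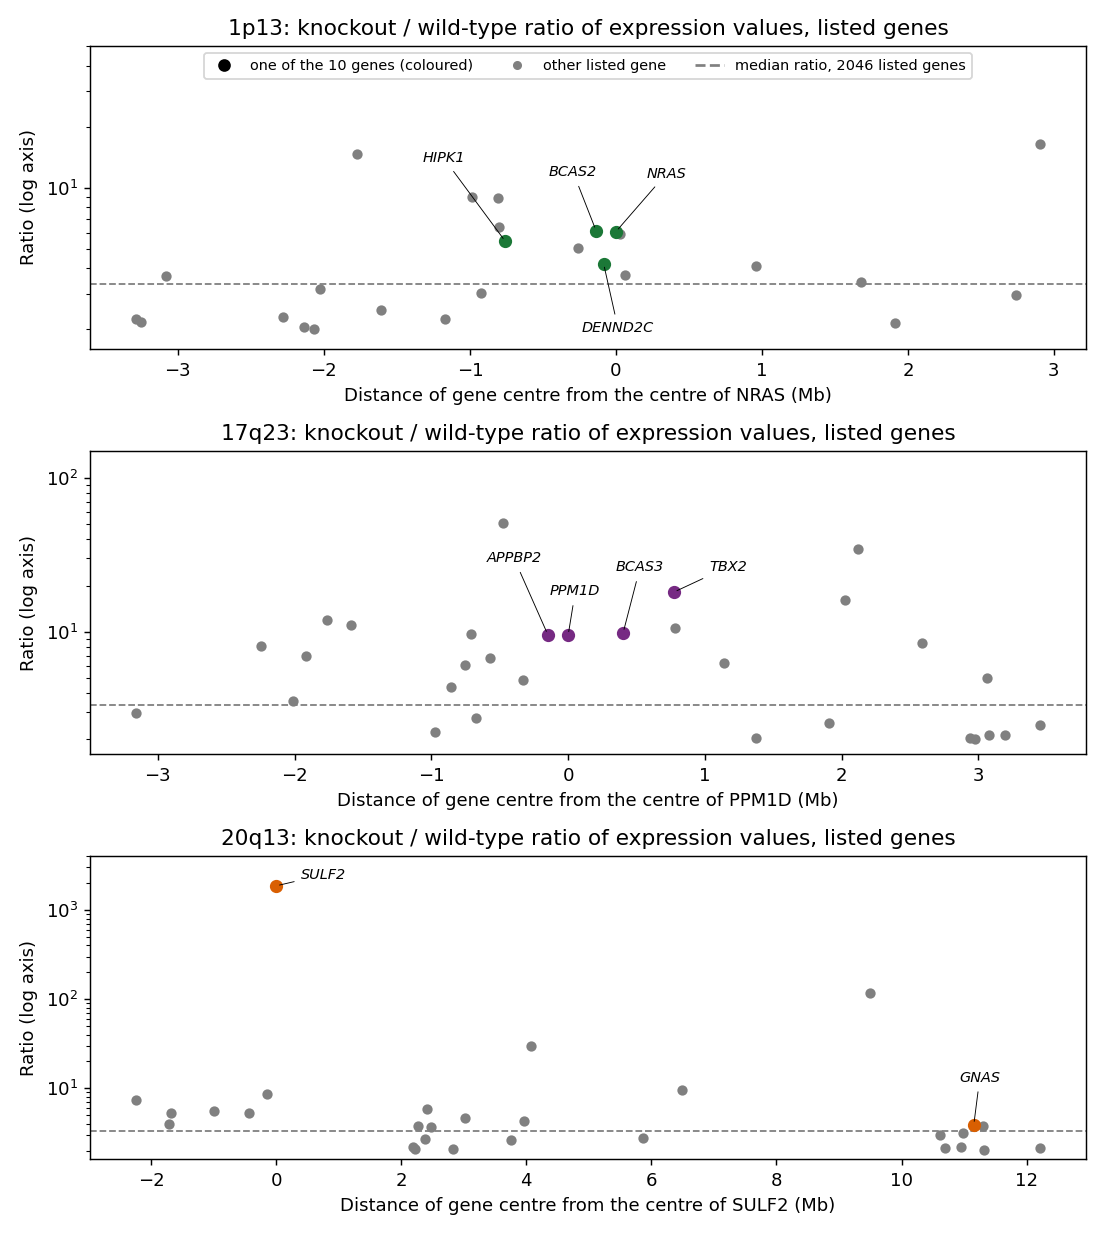
Ratio of expression values (log axis) of listed genes up to 3 Mb past the outermost members, by distance of the gene centre from the centre of NRAS, PPM1D or SULF2 in Mb, with the 10 genes coloured, other listed genes in grey and the median over all listed genes (3.33) as a dashed line. APPBP2, PPM1D and BCAS3 lie at one height among other genes that run from 2.01 to 51.25, and SULF2 lies above every other listed gene of its panel.

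Lists of genes known from these amplicons in breast cancer were counted next, members included. Of 34 genes of the 1p13 list 20 were listed, with a median ratio of 3.92 and 10 at a ratio of at least 4. Of 27 of the 17q23 list 18 were listed, with a median of 6.88 and 14 at a ratio of at least 4. Of 38 of the 20q13 list 16 were listed, with a median of 3.71 and 6 at a ratio of at least 4. Of all protein-coding genes 10.1% were listed. Over all listed genes the median was 3.33 and 41.2% had a ratio of at least 4. The 20q13 count was close to that share. Each list holds members chosen with their ratios known, so nothing is read from these counts. ZNF217, a zinc finger repressor regarded as a driver of the 20q13 amplicon, was at 92.26 and 33.69, a ratio of 2.74. PFDN4, a prefoldin subunit, was at 168.06 and 17.61, a ratio of 9.54. IGSF3, an immunoglobulin superfamily protein on the 1p13 list, was at 47.29 and 22.06, a ratio of 2.14. UBE2V1, a ubiquitin-conjugating enzyme variant on the 20q13 list, was at 289.64 and 106.52, a ratio of 2.72.

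The pathways in which the members act were described through lists of their partners, whose listed counts stand beside 10.1% of all protein-coding genes. Each list also holds its own member or members, which are listed by choice and raise its count. Of 22 genes of the RAS and MAP kinase core 7 were listed, with NRAS as the one RAS gene. MAPK3, the kinase ERK1, was at 111.57 in the knockout and 32.65 in the wild type, a ratio of 3.42, and its phosphatase DUSP4 at 43.09 and 2.61, a ratio of 16.5. The scaffold KSR1 was at 6.23 and 0.43, a ratio of 14.5. MAP2K2, GRB2 and SPRED2 lay between 2.16 and 2.44.

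Of 26 genes of the stimulatory G protein and cyclic AMP list 10 were listed, GNAS among them. GNB2, a G protein beta subunit, had a ratio of 4.03 (251.95 and 62.51), close to that of GNAS. PRKAR2B, a regulatory subunit of protein kinase A, was at 19.08 and 0.93, a ratio of 20.5, and PDE4D, which degrades cyclic AMP, at 3.82 and 0.34, a ratio of 11.2. PRKAR1A, another regulatory subunit, was at 278.91 and 105.38, a ratio of 2.65 but a read-count fold of 2.17 (2.11 to 2.24). GNAI3, an inhibitory alpha subunit, was at 53.35 and 20.11, a ratio of 2.65, and the cyclase ADCY3 at 9.71 and 3.85, a ratio of 2.52.

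Of 25 genes of heparan sulfate synthesis, editing and core proteins 7 were listed, SULF2 among them. The enzymes that add 6-O-sulfate, which SULF2 removes, were listed as HS6ST1 at 32.61 in the knockout and 7.78 in the wild type, and HS6ST2 at 8.43 and 0.03. HS6ST2 rested on 603 and 2 reads, and its read-count fold was 261 (71.9 to 2160). GLCE, an epimerase of heparan sulfate synthesis, was at 17.28 and 4.82. The core proteins SDC3, GPC4 and SDC2 were at 8.22 and 1.1, 7.42 and 1.3, and 6.71 and 2.64, with ratios of 7.47, 5.71 and 2.54.

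Partners of the other members were listed in small numbers. Of 12 genes of the p53 checkpoint and PPM1D substrates 2 were listed, PPM1D and CDKN1A, the cell cycle inhibitor p21, at 82.26 and 17.92, a ratio of 4.59. Of 16 T-box genes 4 were listed. TBX3, the close relative of TBX2, was at 22.32 and 3.47, a ratio of 6.43, and TBX6 at 4.06 and 1.97, a ratio of 2.06. EOMES had 63 reads in the knockout and 0 in the wild type, with a counting interval that began at 14.4-fold. Of 13 genes of the PRP19 splicing complex 2 were listed, BCAS2 and BUD31 (99.29 and 48.65, a ratio of 2.04), and of 10 HIPK genes and partners 2, HIPK1 and HIPK2 (6.55 and 2.83, a ratio of 2.31). Of 20 DENN-domain and RAB9 genes 2 were listed, DENND2C and its target RAB9A at 85.91 and 25.48, a ratio of 3.37. APPBP2 was the 1 listed gene of 15 of the CUL2 ligase list. Among 6 genes named BCAS or BCAR for breast cancer 3 were listed, the third being BCAR1, an adaptor of focal adhesions on another chromosome, at 106.26 and 16.86, a ratio of 6.30.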

How the data were processed

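RNA of 1 wild-type and 1 knockout library was sequenced. HISAT2 2.0.4, CASAVA 1.4 and the build GRCh38.p12 appear in the submitters' processing notes. No source used here names the counting tool, the annotation or strand use. In the 1 table used, the authors deposited an expression value per gene and library, a signal of no named unit that was taken to be adjusted for length and depth. Its read columns, per the file headers, are read counts, and each was used like an expected count because 43.7% of knockout and 40.7% of wild-type entries were fractional. The deposited ratio equals knockout over wild type in 2046 of 2046 genes (tolerance 1e-06). Deposited log2 ratios have crossed headers and were not used. Columns not matched to a sample numbered 0.

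Ratios were formed from expression values. For the read-count fold, knockout over wild-type reads was scaled down by 1.16. This is the median between-library ratio of reads per expression unit in the 1133 genes that had 100 or more wild-type reads. The interval is an exact conditional binomial 95% interval on rounded counts. It was checked only on whole counts simulated from the model that it assumes. Fractional counts, genes with almost no wild-type reads and folds as large as that of SULF2 were not covered. Python 3.11.15, numpy 2.4.6, pandas 2.3.3 and scipy 1.17.1 were used. GENCODE 29 (GRCh38) gave coordinates for 2013 genes through their Entrez numbers, and a RefSeq table on GRCh38.p14 gave the promoters. With 1 library a group no test was made. Genes were named as the 10 members, the nearest listed genes, the highest and lowest ratio in each 1 Mb window, and of each of the 17 lists all listed genes up to 6 or the 6 with most reads. BMP7, PFDN4, KSR1, PDE4D, SDC2 and genes 1 to 3 Mb away were added after their values were seen, and 2 genes that the rule names are not reported here. The members and lists were chosen with earlier results of these data known.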

Additional observations from a re-analysis of the deposited data

How the results depend on the processing

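Each genotype had 1 library, so no library could be left out. Among the 10 genes, few wild-type reads limit SULF2 (11.3 reads) and DENND2C (75.5 reads) most. No paired analysis was possible because each genotype had 1 library and no test was made. Under 3 pseudocounts and on reads, of 40 member ratios 23 moved by less than the mean distance, on the log scale, from the read-count fold to the bounds of its counting interval and 17 by more, 9 of these with a pseudocount of 5.

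Evenness changed with the scale, since a pseudocount lowers the ratio of low genes most. At 1p13 highest over lowest was 1.46, and 2.23 and 3.38 with pseudocounts of 1 and 5. At 17q23 it was 1.90, with 1.50 and 1.15 under these pseudocounts and 1.04 without TBX2. At 20q13 it was 480, with 252, 47.9 and 10.6 under pseudocounts of 0.1, 1 and 5, so the locus was the least even of the 3 on every scale tried. The 9 genes at a ratio of at least 4 were 8 or 9 on the other scales and 2 under a 10-fold rule. The share of protein-coding genes listed, members included, was 63.6% in the 17q23 window and 34.1% with 3 Mb on each side. Between the outermost members it was 100%, a value fixed by choice, since that span holds no protein-coding gene but the 4 members. At 20q13 it was 31.3%, and 20.6% with 3 Mb. At 1p13 it was 60.0%, and 39.4% with 3 Mb.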

Other observations

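Listed genes 1 to 3 Mb outside the members included others known from the 17q23 amplicon. TRIM37, a ubiquitin ligase of the centrosome, was at 256.7 in the knockout and 23.31 in the wild type, a ratio of 11.0, next to PPM1E, a relative of PPM1D, at 2.73 and 0.23, a ratio of 11.9. RAD51C, a recombination repair protein, was at 121.64 and 17.42, a ratio of 6.98, and RNF43, a ubiquitin ligase acting on Wnt receptors, at 23.67 and 2.92, a ratio of 8.11. On the other side TANC2, a scaffold protein, was at 46.61 and 5.48, a ratio of 8.51, while DCAF7 and TACO1 were at ratios of 2.04 and 2.01, at the limit of the table. MRC2 and MARCHF10 had ratios of 16.0 and 34.5 on 7 and 2 wild-type reads.

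At 1p13 the ratios at that distance ran from 2.003 for CAPZA1, an actin-capping protein at 152.98 and 76.37, to 3.67 for RAP1A, a RAS-related GTPase at 102.48 and 27.95, apart from TENT5C, a poly(A) polymerase at 17.96 and 1.1 with a ratio of 16.3. At 20q13 the 4 genes at that distance ran from 2.13 for PPP1R3D to 7.36 for WFDC2, a secreted protein at 16.27 and 2.21.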
